A study of Homo sapiens with 6 samples.

Results

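O-linked N-acetylglucosamine transferase (OGT) works in the nucleus together with a small group of chromatin proteins, and the RNA of 10 genes encoding these partners and substrates was examined here after OGT silencing. The genes were *HCFC1*, *HCFC2*, *TET1*, *TET2*, *TET3*, *SIN3A*, *BAP1*, *ASXL1*, *ASXL2* and *EZH2*. They were chosen by name for what their proteins are known to do with OGT and matched to the count files by gene symbol. Earlier results of these data were known when they were chosen. All 10 of 10 were found among the 16907 genes of the files, and all 10 were among the 14853 genes tested. The study transfected LX-2 cells, a human line derived from hepatic stellate cells, with a control small interfering RNA (siControl) or with a pool of siRNAs directed against *OGT* (siOGT) from another supplier. The siRNA product thus differed between the groups along with *OGT* silencing, and their effects cannot be told apart. Both groups received 20 nM for 72 h in medium with fetal bovine serum, and each group had 3 libraries from 3 independent experiments, numbered as pairs. A single cell line was used, the siRNAs are identified by supplier and product but not by sequence in the sources used here, and only RNA was measured, not protein or O-GlcNAc modification of the products.

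OGT is the only enzyme known to attach O-GlcNAc to nuclear and cytosolic proteins, and OGA removes it. HCF-1, the product of *HCFC1*, is a large scaffold that binds OGT, is modified by it and is also cut by it as it matures, and it links transcription factors to histone-modifying complexes. TET proteins oxidize 5-methylcytosine in DNA and recruit OGT to chromatin, SIN3A is the scaffold of a histone deacetylase complex that can carry OGT to repressed genes, and BAP1 with its ASXL cofactors removes ubiquitin from histone H2A in a complex that also holds HCF-1 and OGT. EZH2 is the catalytic subunit of Polycomb repressive complex 2 (PRC2), which methylates lysine 27 of histone H3, and it is an OGT substrate.

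Libraries held between 25996770 and 27966801 expected counts, and the 10 genes had between 225 and 12635 counts per library. Of the 60 values of these genes, 59 were whole numbers, so nearly all counts were assigned to these genes without fractions. In counts per library scaled to the same total (CPM), *OGT* itself fell from 145 ± 28.9 to 32.0 ± 6.94 (SD, 3 libraries each). *OGA* fell from 97.3 ± 2.87 to 40.6 ± 8.36 CPM, and the edgeR adjusted p-values of the pair were 2.71e-12 and 3.31e-08. Among stellate cell markers, *COL1A1*, *COL3A1* and *VIM* were abundant in siControl (2660, 461 and 3200 CPM), *DES* and *HAND2* were below 1 CPM, and *LRAT* was removed by the filter on low counts. Of 11 stellate markers tested, 5 were called lower and 2 higher in siOGT (edgeR adjusted p-value of at most 0.05). Over all genes tested, 12.7% were called in each direction. The median log2 fold change of these markers was -0.32. Their summed level was between 8130 and 9830 CPM in siControl and between 7700 and 9650 CPM in siOGT. The summed level of hepatocyte markers was between 3.34 and 4.44 CPM per library, that of cholangiocyte markers between 4.78 and 8.35 CPM and that of endothelial markers between 3.0 and 7.86 CPM, with *ALB*, *HNF4A* and *EPCAM* below the filter. Macrophage and leukocyte markers summed to between 131 and 208 CPM, nearly all of it *CD68* (137 CPM in siControl and 188 CPM in siOGT), whereas *PTPRC* was at 0.536 CPM in siControl. The part of the stellate markers and of *CD68* in the results below was not tested.

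Of the 10 genes, 5 changed in siOGT at an edgeR adjusted p-value of at most 0.05, and this threshold defines a called gene throughout. *TET3*, *TET2* and *HCFC2* rose, and *HCFC1* and *SIN3A* fell. Over all genes tested the share called was 25.4%, with 12.7% higher and 12.7% lower, against 5 of the 10 genes. In mean CPM, *TET1* stood at percentile 34.8 of all genes tested and the others at percentiles from 63.0 to 97.7. The shares over all genes, here and below, were not matched for level. The median log2 fold change was 0.026 for the 10 genes and 0.007 for all genes, and the median absolute log2 fold change was 0.17 and 0.19, respectively. None of the 10 genes reached a 2-fold change, the largest absolute log2 fold change being 0.58. The calls rested on the pairing: without the replicate block edgeR called 0 of 10 (lowest adjusted p-value 0.166) and 0.875% of all genes. At 0.05 without adjustment, that fit passed 3 of the 10 genes and 18.1% of all genes, against 36.7% of all genes with the block. DESeq2 without the block called 0 of 10 (lowest adjusted p-value 0.0585) and 5.72% of all genes, and passed 4 of 10 and 17.2% without adjustment. DESeq2 with the block called 5 of 10 and 16.3% of all genes, and passed 5 of 10 and 26.4% without adjustment. In these bulk samples, less RNA per cell and fewer cells holding it cannot be told apart.

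**Figure D1:**
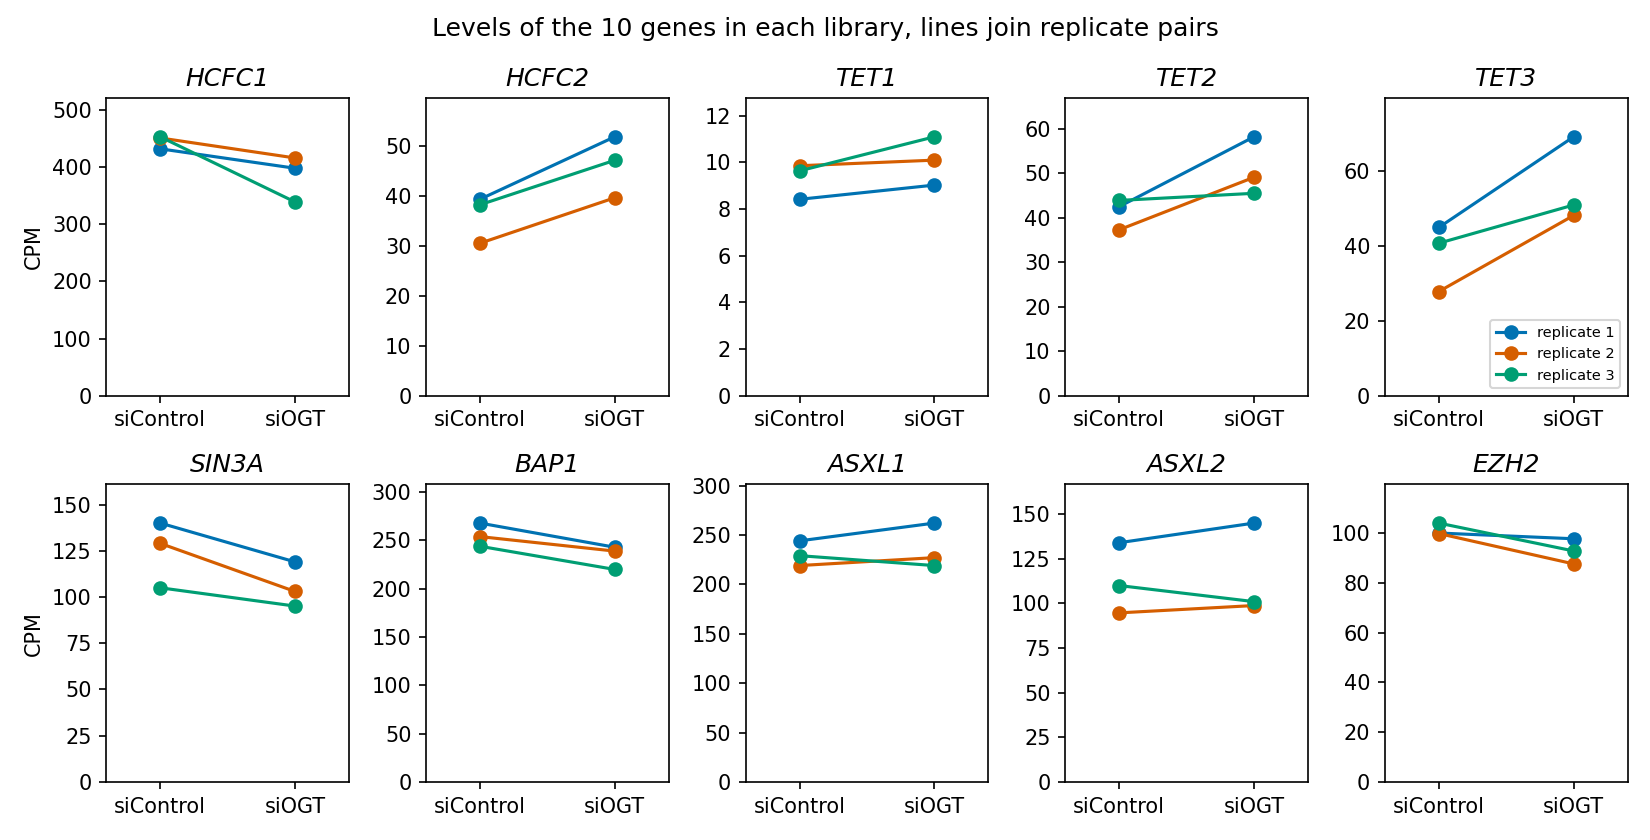
CPM (linear axis from 0) of each of the 10 genes in siControl and siOGT, with lines joining the libraries of a replicate pair, 3 pairs per gene. *TET3* and *HCFC2* lie higher in siOGT in each pair and *SIN3A* lower in each pair, while the lines of *ASXL1* and *ASXL2* cross direction between pairs.

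Among the TET dioxygenases, *TET3* (chromosome 2, 73984910 to 74108176, plus strand, hg38) was at 44.9, 27.8 and 40.7 CPM in siControl 1 to 3 and at 69.1, 48.1 and 50.9 CPM in siOGT 1 to 3. Every siOGT library was above every siControl library, although the siControl libraries themselves spanned a 1.62-fold range. The fitted log2 change was 0.58 (95% confidence interval 0.40 to 0.75, SE 0.082), a 1.49-fold rise with an edgeR adjusted p-value of 8.37e-05, and the log2 ratios within the pairs were 0.62, 0.79 and 0.32. This was the largest change among the 10 genes and exceeded 87.2% of all genes tested in absolute size. Over 3.0% of its exonic bases *TET3* shares its strand with a long noncoding RNA gene that is not among the symbols of the files.

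*TET2* (chromosome 4, 105145875 to 105279816, plus strand) was at 42.5, 37.3 and 43.9 CPM in siControl and at 58.2, 49.1 and 45.5 CPM in siOGT. The groups did not overlap, but the third pair barely differed, with log2 ratios of 0.45, 0.40 and 0.05. Its log2 fold change was 0.30 (SE 0.080, edgeR adjusted p-value 0.0105). Leaving out replicate 1 ended the call (log2 fold change 0.22, adjusted p-value 0.165).

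*TET1* (chromosome 10, 68560337 to 68694487, plus strand) was the scarcest of the 10 genes, at 8.42, 9.86 and 9.64 CPM in siControl and 9.03, 10.1 and 11.1 CPM in siOGT. The groups overlapped and the gene was not called (log2 fold change 0.12, 95% confidence interval -0.11 to 0.34, edgeR adjusted p-value 0.478). With 225 to 298 counts per library this interval is the widest among the 10 genes, so a rise of the size seen for *TET2* lies within it.

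For the host cell factors, the direction was opposite between paralogues. *HCFC1* (chromosome X, 153947557 to 153971818, minus strand) was at 432, 451 and 453 CPM in siControl and at 398, 416 and 339 CPM in siOGT. All siOGT libraries were below all siControl libraries, which themselves spanned only a 1.05-fold range, and siOGT 3 was the lowest. The fitted log2 change was -0.22 (95% confidence interval -0.37 to -0.06, SE 0.073, edgeR adjusted p-value 0.0367), and the log2 ratios were -0.12, -0.12 and -0.42. Leaving out replicate 1 ended the call (-0.27, adjusted p-value 0.109), as did leaving out replicate 3 (-0.12, 0.167) and scaling by library totals alone (-0.19, 0.0593).

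*HCFC2* (chromosome 12, 104064531 to 104106524, plus strand), which encodes a smaller relative of HCF-1, was at 39.3, 30.5 and 38.2 CPM in siControl and at 51.8, 39.6 and 47.1 CPM in siOGT. The lowest siOGT library lay just above the highest siControl library. Within pairs the rise was even, with log2 ratios of 0.40, 0.38 and 0.30. The fitted log2 change was 0.36 (95% confidence interval 0.21 to 0.51, SE 0.070, edgeR adjusted p-value 0.00121), and leaving out any of the 3 pairs kept the call.

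*TET3* and *HCFC2* had the largest rises, and the 250 bases upstream of their start sites are shown so that the promoters of both genes can be compared (RefSeq, GRCh38.p14, both on the plus strand, TET3 at chr2:73984660-73984909 and HCFC2 at chr12:104064281-104064530). Capitals mark the E-box word CACGTG.
TET3: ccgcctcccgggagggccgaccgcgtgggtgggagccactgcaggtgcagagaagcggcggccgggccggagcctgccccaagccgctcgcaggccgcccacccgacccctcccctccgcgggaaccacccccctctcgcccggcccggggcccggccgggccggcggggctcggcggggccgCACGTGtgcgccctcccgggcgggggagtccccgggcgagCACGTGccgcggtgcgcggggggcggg
HCFC2: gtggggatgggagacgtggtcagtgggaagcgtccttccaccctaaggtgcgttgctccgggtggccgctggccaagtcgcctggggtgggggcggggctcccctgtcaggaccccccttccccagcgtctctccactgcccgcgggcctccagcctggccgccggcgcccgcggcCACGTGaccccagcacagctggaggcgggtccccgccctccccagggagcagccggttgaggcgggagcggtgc
Both sequences were rich in G and C (84.0% and 74.8%, against a median of 58.0% over 35114 RefSeq promoter windows of this length), with 37 and 21 CpG dinucleotides. The E-box word, which reads the same on both strands, was found 2 times for *TET3* and 1 time for *HCFC2*, and 6.3% of all windows held it. The GC box GGGCGG was found on either strand 3 and 2 times (42.6% of all windows held it), and the E2F word TTCCCGC 1 time for *TET3* only (5.5%). Neither sequence held, on either strand, the ETS word CCGGAAG (found in 8.5% of all windows), the NRF1 word TGCGCA (6.9%), the box named CCAAT (32.0%), the word of THAP11 and ZNF143, ACTACAA (2.5%), or the CREB word TGACGTC (3.1%). The E-box word was found 0 times in the window of *TET2*, which was also called higher. It was likewise found 0 times in those of *TET1*, *SIN3A*, *ASXL1*, *ASXL2* and *EZH2*. No usable window was available for *HCFC1* and *BAP1*. The shares over all windows were not matched for G and C content. All these matches describe the letters only, since no factor binding was measured.

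*SIN3A* (chromosome 15, 75369379 to 75455842, minus strand) was at 140, 129 and 105 CPM in siControl and at 119, 103 and 95.1 CPM in siOGT. The groups overlapped, since siOGT 1 was above siControl 3, but the gene was lower in each pair (log2 ratios -0.23, -0.33 and -0.15). The fitted log2 change was -0.24 (95% confidence interval -0.37 to -0.10, SE 0.065, edgeR adjusted p-value 0.0131). Without replicate 1 or replicate 2 the call was lost (-0.24 and -0.19, adjusted p-values 0.109 and 0.103). A long noncoding RNA gene on the opposite strand covers 6.9% of its exonic bases, and the counting was strand-specific.

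The paralogue *SIN3B*, which scaffolds a related deacetylase complex, rose instead, by 0.23 on the log2 scale (edgeR adjusted p-value 0.0139, SE 0.065). It averaged 102 ± 6.94 CPM across siControl libraries and 119 ± 2.82 CPM across siOGT libraries (n = 3 each, SD). Its call was lost without the block (adjusted p-value 0.214 in edgeR and 0.162 in DESeq2), without replicate 1 (0.167) and without replicate 2 (0.0717).

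The genes of the BAP1 deubiquitinase were not called. *BAP1* (chromosome 3, 52401008 to 52410008, minus strand) was at 268, 254 and 244 CPM in siControl and at 243, 239 and 220 CPM in siOGT. The groups came close without overlapping, and the log2 ratios were -0.14, -0.09 and -0.15, yet the test did not call the gene (log2 fold change -0.13, 95% confidence interval -0.26 to 0.009, edgeR adjusted p-value 0.164). *ASXL1* (chromosome 20, 32358330 to 32439319, plus strand) was at 244, 219 and 229 CPM in siControl and at 262, 227 and 219 CPM in siOGT. *ASXL2* (chromosome 2, 25733753 to 25878487, minus strand) was at 134, 94.7 and 110 CPM and at 145, 98.8 and 101 CPM, respectively. Both cofactor genes were higher in siOGT in the first and second pairs and lower in the third. Their log2 fold changes were 0.03 (95% confidence interval -0.11 to 0.17) and 0.02 (-0.12 to 0.16), with edgeR adjusted p-values of 0.782 and 0.857. In absolute size they exceeded only 9.2% and 6.3% of all genes tested, and replicate 1 was the highest in both groups.

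*EZH2* (chromosome 7, 148807257 to 148884321, minus strand) was at 100, 99.8 and 104 CPM in siControl and at 97.7, 87.6 and 92.8 CPM in siOGT. All siOGT libraries were below the siControl libraries, but the gene was not called (log2 fold change -0.13, 95% confidence interval -0.26 to 0.012, edgeR adjusted p-value 0.173). *EZH1*, its paralogue in PRC2, rose from 54.5 ± 0.833 to 68.7 ± 0.835 CPM (n = 3 each, SD), or by 0.33 on the log2 scale (edgeR adjusted p-value 0.00133, SE 0.066), and without the block its adjusted p-value was 0.094 in edgeR and 0.0156 in DESeq2. *EZH2* is known as a gene that dividing cells express more. Of 27 proliferation genes, 21 were called lower and 0 higher, against 12.7% of all genes tested in each direction. Their median log2 fold change was -0.33. Most of these calls were lost in edgeR without the block, a fit that called 0.875% of all genes tested. The lowest were *TYMS*, *RRM2* and *MCM5*, at -0.63, -0.62 and -0.61, which make or license DNA synthesis. The summed level of these genes was between 6910 and 7170 CPM in siControl and between 5590 and 5990 CPM in siOGT, and its part in the level of *EZH2* was not tested.

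**Figure D2:**
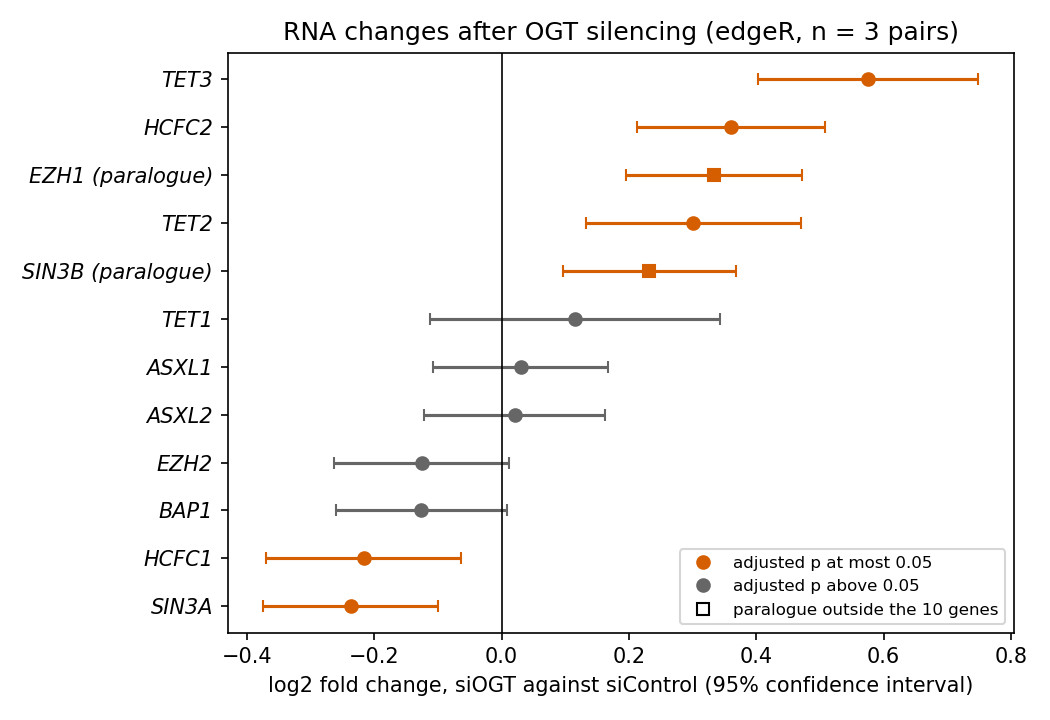
Log2 fold change of siOGT against siControl with its 95% confidence interval (edgeR, 3 pairs) for the 10 genes (circles) and the paralogues *EZH1* and *SIN3B* (squares), with called genes in orange. The intervals of *HCFC1* and *SIN3A* lie below 0 and those of *HCFC2* and *SIN3B* above it.

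In 6 of the 10 genes the groups did not overlap, 3 higher and 3 lower, against 23.9% of all genes tested (12.1% higher and 11.8% lower). In 8 of the 10 genes the sign was shared by all 3 pairs, against 54.0% of all genes. *BAP1* and *EZH2* were in the first set without being called, and *SIN3A* was called without being in it.

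Per kilobase of the reference transcript, the siControl levels followed the order *BAP1*, *HCFC1*, *EZH2*, *ASXL1*, *SIN3A*, *ASXL2*, *HCFC2*, *TET2*, *TET3* and *TET1*. *BAP1* was at 70.9 ± 3.32 CPM per kilobase and *TET1* at 0.968 ± 0.0809 (SD, n = 3). No neighbours in this order overlapped in their range over the siControl libraries. The closest were *TET2* and *TET3*, with 3.89 to 4.57 and 2.31 to 3.73 CPM per kilobase. The transcripts used by the cells were not measured, so these levels depend on the reference transcript chosen.

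Whether the balance between paralogues shifted was then examined with the ratio of their counts per kilobase within each library, which no scaling of libraries can alter. *HCFC1* exceeded *HCFC2* by 7.01, 9.43 and 7.56 times in siControl and by 4.90, 6.69 and 4.59 times in siOGT. The log2 ratio fell in each pair, by 0.58 on average (SD 0.12). *EZH2* exceeded *EZH1* by 3.16, 3.18 and 3.37 times in siControl and by 2.49, 2.20 and 2.38 times in siOGT, with no overlap between groups and a mean log2 change of -0.46 (SD 0.10). The ratio of *SIN3A* to *SIN3B* was 1.05, 1.01 and 0.722 in siControl and 0.738, 0.666 and 0.590 in siOGT, a mean log2 change of -0.47 (SD 0.16).

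Within the TET family, the ratio of *TET2* to *TET3* was 1.19, 1.69 and 1.36 in siControl and 1.06, 1.28 and 1.13 in siOGT, with a mean log2 change of -0.28 (SD 0.11). The ratio of *TET1* to *TET3* changed by -0.46 (SD 0.32) on the log2 scale, and the pair of replicate 3 was at -0.12. The ratio of *ASXL1* to *ASXL2* was 3.77 ± 0.448 in siControl and 3.80 ± 0.469 in siOGT (SD, n = 3 each), a mean log2 change of 0.01 (SD 0.04). In 5 of these 6 ratios all 3 pairs moved the same way. The exact two-sided sign-flip permutation test gave p = 0.25 for each of the 5, which is the smallest value this test allows with 3 pairs, and 0.30 after adjustment over the 6 ratios, so this test could not place any of them below 0.05.

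**Figure D3:**
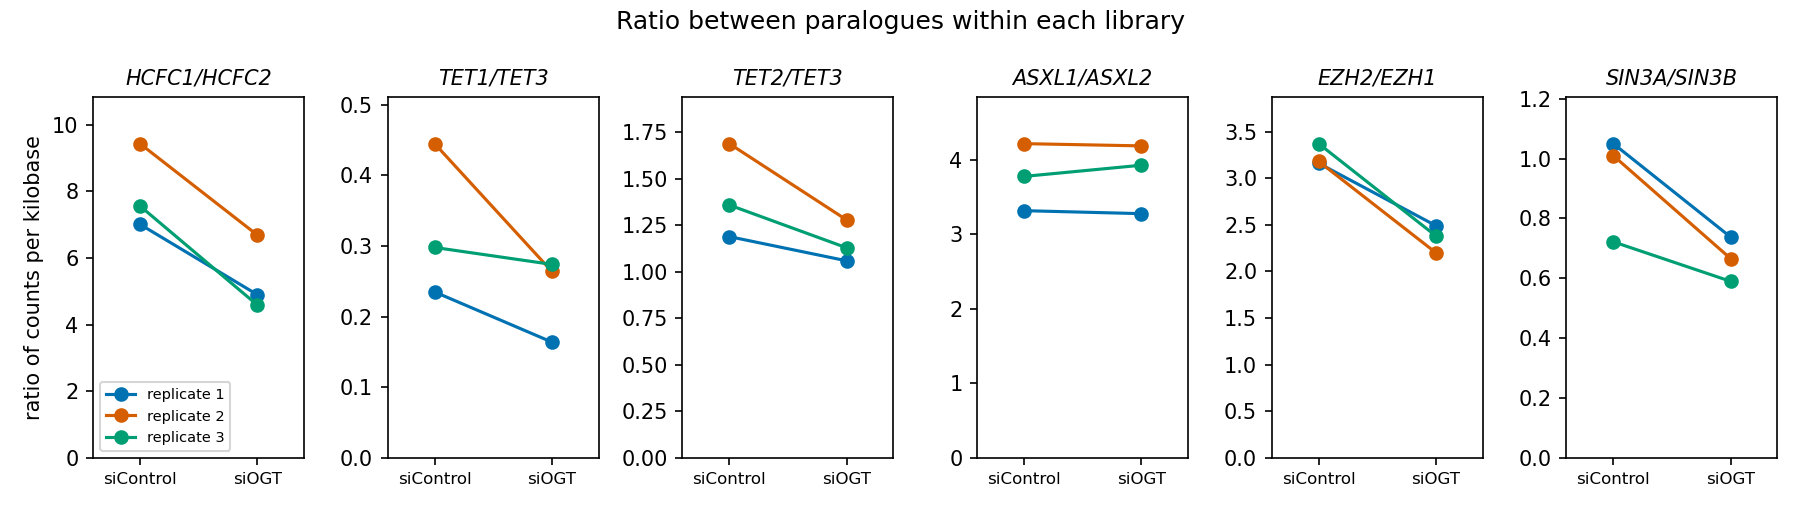
Ratio of counts per kilobase (linear axis from 0) between paralogues within each library, with lines joining the libraries of a replicate pair. The *HCFC1/HCFC2*, *EZH2/EZH1* and *SIN3A/SIN3B* ratios are lower in siOGT in 3 of 3 pairs, while *ASXL1/ASXL2* stays near 3.8.

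The complexes around these proteins were described with gene lists, without the 10 genes themselves except where named. Of 17 genes of H3K4 methyltransferase (SET1 and MLL) complexes, only some of which hold HCF-1, 2 were called higher and 0 lower. Their median log2 fold change was -0.002. The 2 called genes were not chosen as members of a complex with HCF-1. They were *KDM6A*, an H3K27 demethylase held in MLL complexes (log2 fold change 0.32, edgeR adjusted p-value 0.00537), and the methyltransferase gene *KMT2B* (0.27, 0.0064). Both calls were lost without replicate 1 (adjusted p-values 0.167 and 0.147). Among 7 genes of the NSL acetyltransferase complex, in which HCF-1 and OGT are found, *KANSL2* was the 1 called, at 0.31 (edgeR adjusted p-value 0.00641, and 0.0503 without replicate 3).

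Of 17 genes for transcription factors and coactivators that bind HCF-1, 2 were called higher and 1 lower. *THAP1*, a zinc finger factor of the cell cycle, was higher by 0.56 on the log2 scale (edgeR adjusted p-value 4.32e-04), and *E2F1*, which drives entry into S phase, was at -0.29 (0.00255). The share called in these 3 lists was between 11.8% and 17.6%, below the 25.4% of all genes tested. Without the block 0 genes of these lists were called by edgeR and 1 by DESeq2.

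The SIN3/HDAC list of 20 genes had 3 called higher and 5 lower, against 12.7% of all genes in each direction, and a median log2 fold change of 0.015. Without the block 0 were called by edgeR and 1 by DESeq2. Among those called lower in every pair were the histone chaperones *RBBP4* and *RBBP7* at -0.32 and -0.30 and the deacetylase gene *HDAC1* at -0.28 (edgeR adjusted p-values 0.00173, 0.0028 and 0.0045). *RBBP4* and *RBBP7* also serve PRC2, and *HDAC1* serves several other complexes. *ARID4A* and *SAP130*, which encode subunits of the SIN3 complex, were higher with *SIN3B*, at 0.28 and 0.23 (0.00934 and 0.0146). Also called lower was *BRMS1L*, at -0.32 (0.0332), which was not lower in every pair and is named after its values were seen. Leaving out replicate 1 ended the calls of *RBBP4*, *HDAC1* and *SAP130* (adjusted p-values 0.0572, 0.0968 and 0.197), and leaving out replicate 2 that of *ARID4A* (0.0642).

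Of 6 tested partners of BAP1, including the *FOXK1* and *FOXK2* factors that bring it to DNA, 0 were called by edgeR or by DESeq2, with or without the block, and with the block 0 passed 0.05 in edgeR before adjustment. Their median log2 fold change was 0.008. Of 21 subunits of PRC1, which places the histone H2A ubiquitin that BAP1 removes, 5 were called higher and 1 lower (median -0.006), 28.6% in all against 25.4% of all genes, and without the block 0 by edgeR and 1 by DESeq2. *PHC3*, *RYBP* and *YAF2* had log2 fold changes of 0.40, 0.39 and 0.38 (edgeR adjusted p-values 5.03e-04, 7.69e-04 and 0.00175), and *CBX2* had -0.28 (0.0174, and 0.199 without replicate 1).

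Of 11 tested genes of PRC2 and H3K27 demethylation, 5 were called higher and 0 lower, against 12.7% of all genes in each direction, with a median log2 fold change of 0.16. Without the block 0 of them were called by edgeR and 3 by DESeq2. The accessory subunit gene *MTF2* rose by 0.55 and the H3K27 demethylase gene *KDM6B* by 0.43 on the log2 scale (edgeR adjusted p-values 1.62e-04 and 3.24e-04). The others were *EZH1*, *JARID2* and *PHF1*, the last pair named after their values were seen (0.27 and 0.22, adjusted p-values 0.02 and 0.023). The core subunits *EED* and *SUZ12*, also named after their values were seen, had log2 fold changes of 0.09 and 0.04 and were not called (0.529 and 0.702).

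Of 13 tested genes of DNA methylation and TET function, 2 were called higher and 4 lower (median -0.09), against 12.7% of all genes in each direction, and without the block 1 was called by edgeR and 3 by DESeq2. *SMUG1* and *TDG*, DNA glycosylases that excise modified bases (TET products in the case of TDG), had log2 fold changes of 0.63 and 0.26 (edgeR adjusted p-values 3.49e-04 and 0.0257). The call of *TDG* was lost without replicate 1 (0.118) or replicate 3 (0.138). For *SMUG1* the groups overlapped in CPM, as they did for *KDM6A*, *KANSL2*, *PHC3* and *CBX2* above. *IDH1* and *IDH2*, which make the TET cosubstrate 2-oxoglutarate, fell by 0.52 and 0.57 (8.87e-05 and 2.19e-05). *UHRF1*, which guides maintenance DNA methylation and is most expressed in dividing cells, fell by 0.54 (2.56e-05). The other gene called lower was *DNMT1*, named after its values were seen, at -0.325 (edgeR adjusted p-value 0.00436). The lower level of proliferation genes given above moved with *UHRF1* and *E2F1* as well, and its part in them was not tested.

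A broader list held 248 transcriptional regulators that the study catalogued as O-GlcNAc-modified in LX-2 nuclei, *KDM6A* and *SAP130* among them. Among the partner and substrate genes examined above, only *HCFC2* was in this catalogue. *HCFC1*, *TET1*, *TET2*, *TET3*, *SIN3A*, *BAP1*, *ASXL1*, *ASXL2* and *EZH2* were absent from it. The study left out proteins found in its negative control or in a contaminant database, so absence does not show lack of modification. In this list, 242 genes were tested. Of these, 56 were called higher and 22 lower, 32.2% in all against 25.4% of all genes, with a median log2 fold change of 0.08 against 0.007. Without the block 4 were called by edgeR and 16 by DESeq2, and without replicate 1 the count with the block was 28. The lowest were *EGR1*, *TOX2* and *TEAD2* at -0.79, -0.72 and -0.67 (edgeR adjusted p-values 4.38e-05, 1.6e-05 and 2.98e-05). *EGR1*, an immediate early gene, had a mean of 31.2 CPM in siControl and 17.2 CPM in siOGT. The highest, *ZNF571*, *ZNF546* and *ZNF709*, were zinc finger genes at 1.18 to 2.57 CPM in siControl, with log2 fold changes of 0.95, 0.79 and 0.725 (0.0121, 0.0217 and 0.008). None of these 3 stayed called without replicate 3 (adjusted p-values 0.0542, 0.0928 and 0.0615), and *ZNF546* and *ZNF709* were also lost without replicate 1 (0.203 and 0.0649).

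**Figure D4:**
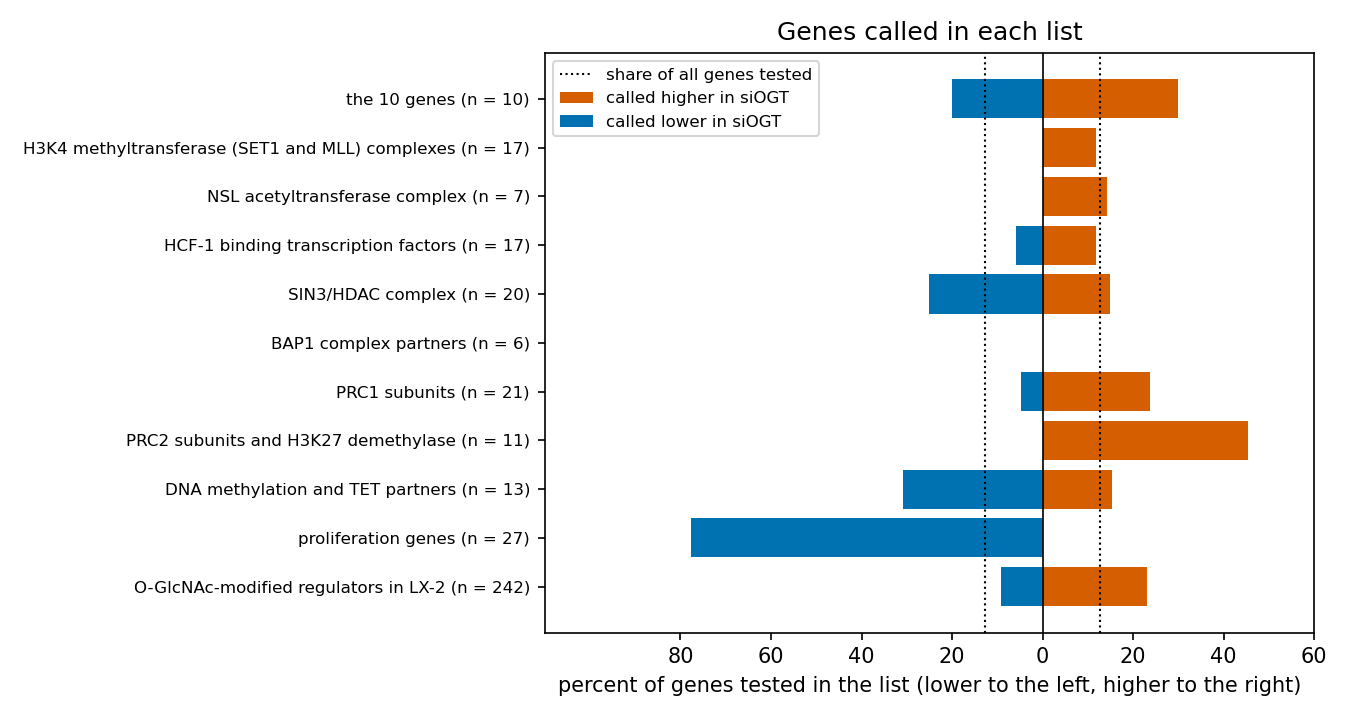
Percent of the tested genes of each list that edgeR called higher (orange, to the right) or lower (blue, to the left) in siOGT, with dotted lines at the 12.7% of all genes tested that were called in each direction. PRC2 genes were called higher only and proliferation genes lower only, and no BAP1 partner was called.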

How the data were processed

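Poly(A) RNA from 6 LX-2 libraries (3 siControl, 3 siOGT) was sequenced paired-end. According to the methods and the submitters' processing notes, the authors aligned reads to hg38 with Bowtie2 2.3.5.1 and counted them with strand-specific settings in RSEM 1.3.1. The deposited values are expected counts per gene, estimated counts that were not normalized. RSEM can divide reads between near-identical genes. A deposited table of the authors' own DESeq2 1.36.0 comparison (mean counts, fold changes and p-values) was not used.

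Here, expected counts were rounded, genes with a total below 10 were removed (2054 of 16907), and TMM scaling was applied (factors 0.979 to 1.019). The remaining 14853 genes entered edgeR 4.0.16 (R 4.3.3), with its two-sided quasi-likelihood test blocked by replicate number, with Benjamini-Hochberg adjustment over all genes. The study's methods pair the samples of a replicate, and deviations from group means correlated by 0.69, 0.53 and 0.33 between same-numbered libraries (12373 genes of at least 1 CPM). No replicates agreed within counting noise. Alternatives were DESeq2 1.42.0, other scalings and filters, no block and leaving out each pair. The code was tested on simulated data. CPM uses TMM-scaled totals, errors are SD, confidence intervals come from the F statistic, and log2 ratios within pairs add 2 counts. Ratios between paralogues add 0.5 counts.

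Coordinates and reference transcript lengths (MANE Select) are from GENCODE 44 on hg38. The annotation release behind the counts may differ. Of the symbols in the gene lists, 9 had no match in the files and 1 was matched by a synonym. The 10 genes and the lists were chosen with earlier results of these data known. Besides the 10 genes, OGT, OGA and paralogues, up to 3 highest and 3 lowest called genes per list were named if they averaged 1 CPM or more and every pair had the sign of the fit. No list was tested as a set.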

Additional observations from a re-analysis of the deposited data

How the results depend on the processing

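Pairing by replicate mattered most. Without the replicate block edgeR called 0 of the 10 genes (0 higher, 0 lower) and 130 of all genes (71 higher, 59 lower), with log2 fold changes of -0.211 for HCFC1, 0.36 for HCFC2, -0.24 for SIN3A, 0.305 for TET2 and 0.568 for TET3, close to those with the block. DESeq2 without the block, added after the data were seen, also called 0 (0 higher, 0 lower), and 849 of all genes (388 higher, 461 lower), with -0.214, 0.357, -0.243, 0.302 and 0.565. In these 2 fits the called genes numbered 0 and 0 for SET1 and MLL complexes, 0 and 0 for NSL, 0 and 1 for HCF-1 binding factors, 0 and 1 for SIN3/HDAC, 0 and 1 for PRC1, 0 and 3 for PRC2, 1 and 3 for DNA methylation and 4 and 16 for O-GlcNAc-modified regulators, and edgeR called 2 proliferation genes. With the block DESeq2 called 2415 genes (1117 higher). With library totals alone 1 of the 10 genes was called lower, HCFC1 having a log2 fold change of -0.194, and 2 NSL genes were called. The cause was not tested.

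Leaving out 1 pair gave from 2 to 4 of the 10 genes called, of them from 2 to 3 higher and from 0 to 1 lower, and from 1803 to 3439 of all genes (858 to 1652 higher, 945 to 1787 lower), with the fewest without replicate 1. Log2 fold changes ranged from -0.269 to -0.123 for HCFC1, -0.287 to -0.192 for SIN3A, 0.223 to 0.419 for TET2, -0.007 to 0.071 for ASXL1 and -0.03 to 0.084 for ASXL2, which passed through -0.001. The ASXL1 to ASXL2 ratio ranged from -0.012 to 0.023 on the log2 scale. The called genes numbered 0 to 4 for SET1 and MLL complexes, 0 to 1 for NSL, 2 to 5 for HCF-1 binding factors, 3 to 7 for SIN3/HDAC, 3 to 4 for PRC2 and 28 to 76 for O-GlcNAc-modified regulators. TET3 and HCFC2 kept direction and call in 8 of 10 alternatives, the exceptions being both fits without the block. BAP1, EZH2 and TET1 stayed uncalled with the same sign in 10 of 10. With 3 pairs and 225 to 298 counts, changes of TET1 are the least precisely measured. Of 34 other named genes, 28 lost the call without the block in edgeR, 19 without it in DESeq2, 5 in DESeq2 with it, and 10, 2 and 5 without replicates 1, 2 and 3, with 0 changes of sign in these fits. List medians changed sign 5 times, all from values near 0: SET1 and MLL (0.02 with library totals, 0.043 without replicate 3), PRC1 (0.016 and 0.011 likewise) and BAP1 partners (-0.019 without replicate 2).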
